A study of Mus musculus with 40 samples.

Results

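Liver DNA methylation was compared between 2 groups of male C57BL/6J offspring that ate the same low-fat (LF) diet after weaning and, by their labels, differed in the diet of their dams. HL animals were born to dams on a high-fat (HF) diet and LL animals to dams on an LF diet, each diet given before and during pregnancy and until weaning. All were killed at 9 weeks of age after a short fast. The members were every animal with values whose labels give a HF dam and LF weaning, 9 HL animals, set against the 10 LL animals, which together made 19 of the 39 animals with values in the series; a further HL animal (HL replicate 1) was not analysed here. Bisulfite treatment turns unmethylated cytosine into uracil and leaves methylated cytosine intact, so that the share of reads that still carry a C at a CpG gives its methylation level in percent. The study amplified loci by PCR around genes of growth, metabolism, nuclear receptors and inflammation. Of the 300 deposited CpGs, 294 at 22 loci had at least 10 reads in most animals of both groups and were tested. The labels give animal numbers but neither litters nor cages, so that a litter effect and an effect of maternal diet cannot be told apart here. The p-values measure the spread between animals and not between dams. They treat animals as independent and may be too small if animals of a group are littermates. No marker of cell type was among the loci, so the labelled tissue was not checked.

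The loci fall into groups by the role of their genes. Plagl1 (a zinc finger transcription factor that restrains cell growth), Peg3 and Igf2 (a fetal growth factor) are imprinted: their parental copies are marked differently in the germ line, and the maternal copies of Plagl1 and Peg3 carry methylation at the gene start while the paternal copies do not. Lep encodes leptin, the satiety hormone of fat tissue, and Lepr its receptor. Pck1 encodes the cytosolic phosphoenolpyruvate carboxykinase, an enzyme that controls glucose production in the fasted liver, and Pck2 the mitochondrial form. CpG methylation near a gene start is commonly low in active or poised genes.

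The sequences below are shown because the largest differences lay in the first pair of them, Plagl1 and Pck1, and because Lep, the third, is the locus with the next smallest p among those at 2% or more. They are the amplified regions in the mouse build NCBIM37, on the plus strand, which is the coding strand of all 3 genes, with the measured CpGs in capitals. The Plagl1 run covers chr10:12810348-12810593 and holds all 17 measured CpGs, of which 9 lie upstream of the annotated gene start and 8 in a non-coding exon. The Pck1 run covers chr2:172978394-172978548, the part of the amplicon upstream of the transcript, with 4 of the 5 measured CpGs. The Lep run covers chr6:29009930-29010112, upstream of the gene, with 11 CpGs.
Plagl1: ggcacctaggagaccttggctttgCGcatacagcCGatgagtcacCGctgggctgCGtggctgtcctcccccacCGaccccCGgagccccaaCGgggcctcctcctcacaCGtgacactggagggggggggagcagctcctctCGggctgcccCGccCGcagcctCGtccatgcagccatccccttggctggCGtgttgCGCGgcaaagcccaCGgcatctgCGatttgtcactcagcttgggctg
Pck1: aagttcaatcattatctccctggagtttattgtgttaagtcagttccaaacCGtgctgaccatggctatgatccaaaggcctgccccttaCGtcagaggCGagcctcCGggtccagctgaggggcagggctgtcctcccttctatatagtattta
Lep: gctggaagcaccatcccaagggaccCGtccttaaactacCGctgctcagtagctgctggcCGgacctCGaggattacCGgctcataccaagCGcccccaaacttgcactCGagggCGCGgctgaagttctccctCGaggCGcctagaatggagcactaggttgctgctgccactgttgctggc
The second CpG of the Pck1 run, Pck1_2, lies 65 bp before the annotated transcription start, inside the 8 letters TTACGTCA. These letters are those of the cyclic AMP response element known in this promoter, the element through which fasting hormones act on the gene. Counting both strands (TTACGTCA or TGACGTAA), 1 of the 22 amplified regions, that of Pck1, held these letters, as did 164 of 32851 RefSeq promoters of 300 bp (GRCm38.p6; 0.499%), which is a count of letters and not of bound sites.

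No CpG and no locus differed between HL and LL once p-values were adjusted. Each CpG was tested by exact permutation of the animals between the groups (two-sided, on the group means) with Benjamini-Hochberg adjustment. At a threshold of 0.05, the adjusted p called 0 of the 294 CpGs (0%), and 37 were under it before adjustment (12.6%). Of these 37, 28 were lower in HL (9.52% of the CpGs tested) and 9 were higher (3.06%). All 17 CpGs of Plagl1 and all 5 of Pck1 were among the 28. The other 272 CpGs gave 15 (5.51% of them), 6 lower and 9 higher in HL. CpGs of 1 locus share their reads and are not independent, so that the 22 CpGs of Plagl1 and Pck1 stand for 2 loci. Of the 22 locus values, the mean over the CpGs of a locus in an animal, 0 were called after adjustment (0%). Before it, 2 loci were under the threshold (9.09%), namely Plagl1 and Pck1, both lower in HL.

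Methylation at Plagl1 was 47.7% ± 3.53 (SD, n = 9) in HL and 53.5% ± 4.04 (n = 10) in LL. The HL animals had levels of 48.9, 50.2, 45.6, 41.4, 45.8, 54.3, 48.2, 46.7 and 48.0% (replicates 2 to 10). The LL animals had levels of 55.4, 58.5, 51.3, 52.3, 51.8, 47.1, 52.0, 58.0, 58.9 and 49.4% (replicates 1 to 10). The groups overlapped: 8 of the 9 HL values were below 52.1%, the LL median, HL replicate 7 lay above it, and 6 of the 10 LL animals lay below the highest HL animal. The difference of -5.81 points had a 95% interval of -9.51 to -2.11 points (exact permutation p = 0.00435, adjusted p = 0.0957). In whole tissue, a change in the level within cells and a change in the mix of cell types cannot be told apart.

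Leaving out either of 2 animals put Plagl1 past the adjusted threshold. Without HL replicate 7, its highest HL animal, the adjusted p was 0.0141 (exact permutation test, 8 HL animals), and without LL replicate 6, its lowest LL animal, it was 0.0326 (exact permutation test, 9 LL animals). Both animals lay against the difference, so that leaving out either had to widen it (to -6.64 and -6.51 points). Leaving out any other single animal gave an adjusted p of 0.0760 to 0.202 (exact permutation test). With all 19 animals the adjusted p was 0.0637 in limma and 0.0910 in the exact Wilcoxon test, and in limma with the animals of all 4 diet groups in the fit it was 0.0329. The unadjusted p stayed between 0.00064 and 0.0159 and the difference stayed negative in all 31 alternatives run. Most of these left out a single animal, and some left the locus value unchanged, so that they are not separate support.

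**Figure D1:**
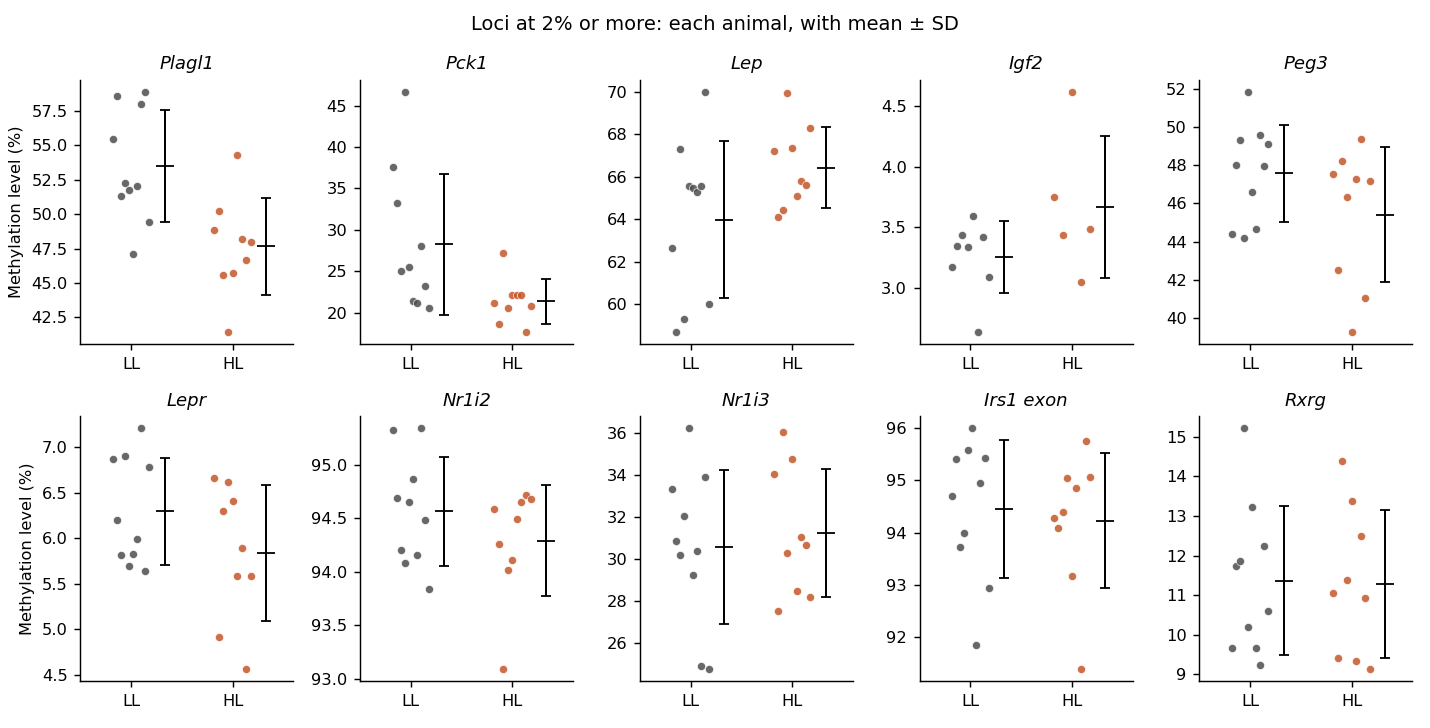
Methylation level in percent (vertical axis, not starting at 0) of each LL animal (grey) and HL animal (orange) at the 10 loci at 2% or more, with the mean ± SD as black bars. Most HL animals lie low at Plagl1 and Pck1, with HL replicate 7 at 54.3% and HL replicate 4 at 27.2% above the rest of their group, and the ranges overlap at every locus.

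The 17 CpGs of Plagl1 shared this direction. Their mean levels ran from 45.4 to 49.4% in HL and from 51.6 to 55.4% in LL, and each was lower in HL, with differences from -4.89 points at Plagl1_12 to -6.76 points at Plagl1_11. Plagl1_11 (chromosome 10, 12810505, non-coding exon) had 47.6% ± 3.999 in HL and 54.3% ± 4.10 in LL (exact permutation p = 0.00227, adjusted p = 0.129). At Plagl1_12 (position 12810513) the levels were 47.3% ± 3.82 and 52.2% ± 4.91 (exact permutation p = 0.0283, adjusted p = 0.306). Plagl1_7, 57 bp upstream of the nearest annotated start, had the smallest p of all CpGs, with 46.3% ± 3.41 and 52.5% ± 3.35 (exact permutation p = 0.00141, adjusted p = 0.129). It ranged from 41.6 to 53.1% in HL (median 45.5%) and from 47.2 to 57.5% in LL (median 51.7%). Plagl1_1 and Plagl1_3, the other Plagl1 CpGs among the 5 smallest p, differed by -5.92 and -5.64 points (exact permutation p = 0.00214 and 0.00349, adjusted p = 0.129 for both). Across the 19 animals, with group means removed, pairs of Plagl1 CpGs had a median correlation of 0.925 (0.671 to 0.983), which is a description, since the CpGs share reads. At a median of 721 reads per CpG, binomial counting error alone would give an SD of 2.02 points at Plagl1_7, against 3.41 points seen in HL and 3.35 points in LL.

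Methylation at Pck1 was 21.4% ± 2.70 in HL and 28.2% ± 8.52 in LL. The HL animals had 21.1, 18.7, 27.2, 20.5, 22.1, 22.1, 22.1, 17.6 and 20.8% (replicates 2 to 10). The LL animals had 37.5, 33.3, 25.0, 46.7, 25.5, 21.4, 21.1, 28.1, 23.2 and 20.6% (replicates 1 to 10). The difference rested largely on LL replicates 1, 2 and 4, at 33.3 to 46.7%. LL replicate 8, at 28.1%, also lay above the highest HL animal (27.2%), and the other 6 LL animals overlapped with HL. The difference of -6.87 points had a 95% interval of -13.2 to -1.004 points (exact permutation p = 0.0174, adjusted p = 0.191). Without LL replicate 4 it was -4.82 points (exact permutation p = 0.0330, adjusted p = 0.363). The difference in medians was smaller, 21.1% in HL against 25.2% in LL.

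At Pck1 the CpGs also varied together from animal to animal (median correlation 0.964, 0.916 to 0.984). The lowest levels were at Pck1_1, the farthest upstream, with 16.3% in HL and 21.9% in LL, and the highest at Pck1_5 in the 5′ UTR, with 25.5 and 32.6%. Pck1_2, in the letters of the response element shown above, had the largest difference of all CpGs, with 22.9% ± 2.85 in HL and 30.9% ± 9.73 in LL (-8.00 points, exact permutation p = 0.0129, adjusted p = 0.204). It ranged from 18.7 to 28.4% in HL and from 22.8 to 51.7% in LL. The next largest were Pck1_5 (-7.15 points, exact permutation p = 0.0461) and Pck1_3 (-6.96 points, exact permutation p = 0.0193), with adjusted p of 0.377 and 0.227. Pck1_1 had the smallest difference of the locus, -5.53 points (exact permutation p = 0.0134, adjusted p = 0.204). These CpGs had a median of 28601 to 57560 reads, and counting error, with the doubled totals of this CpG halved, would give an SD of 0.281 points at Pck1_2, far under the spread in either group.

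**Figure D2:**
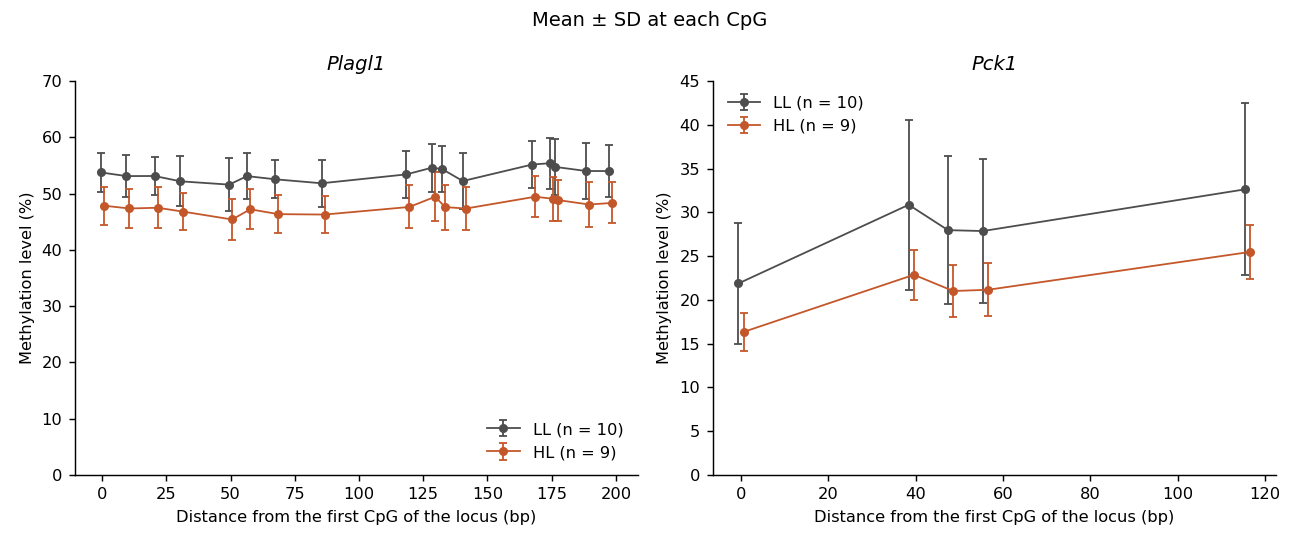
Methylation level in percent (mean ± SD, from 0) at each CpG of Plagl1 and Pck1, by its distance in bp from the first CpG of the locus, in LL (grey, n = 10) and HL (orange, n = 9). The HL line lies under the LL line at all 17 CpGs of Plagl1 and all 5 of Pck1, and the LL bars at Pck1 are wider than those of HL.

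The spread between animals at Pck1 was larger in LL, with a mean absolute deviation from the group median of 5.98 points against 1.78 points in HL (exact permutation p = 0.0529, adjusted p = 0.582). Nr1h3, the gene of the oxysterol receptor LXR alpha, had the smallest p for spread, 0.384 points in LL against 0.213 points in HL (exact permutation p = 0.0315, adjusted p = 0.582). Of its 19 tested CpGs, 9 lay outside the amplified region, Nr1h3_14 and Nr1h3_19 among them. Some of its CpGs had values in only 5 HL and 6 LL animals, among them Nr1h3_14 (4.68% in HL, 3.86% in LL) and Nr1h3_19 (4.15 and 3.21%). The Nr1h3 value thus averaged different CpGs in different animals, and what this did to the spread was not tested. No other locus had an unadjusted p under 0.05 for spread, and 0 of 22 passed adjustment.

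The animal numbers fall into runs of consecutive numbers within a group, 5 runs in HL and 4 in LL; the labels do not say what a run is. Averaged over runs, Plagl1 stood at 48.9, 47.9, 47.2, 48.2 and 47.3% in the HL runs and at 55.1, 50.4, 55.0 and 54.1% in the LL runs, so that the run means did not overlap (-5.77 points, exact permutation p = 0.0159, the smallest that 5 runs against 4 allow, adjusted p = 0.349). With so few runs, a single locus at that p could not pass adjustment over the 22 loci. Pck1 stood at 19.2 to 22.9% in the HL runs and at 21.9 to 32.0% in the LL runs, with -6.01 points between the means (exact permutation p = 0.0476, adjusted p = 0.4656). The LL animals high at Pck1 came from 2 runs, replicates 1 and 2 from the run of animals 13 to 15 and replicate 4 from the run of animals 100 to 102, and these runs also held replicate 3 at 25.0% and replicates 5 and 6 at 25.5 and 21.4%.

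**Figure D3:**
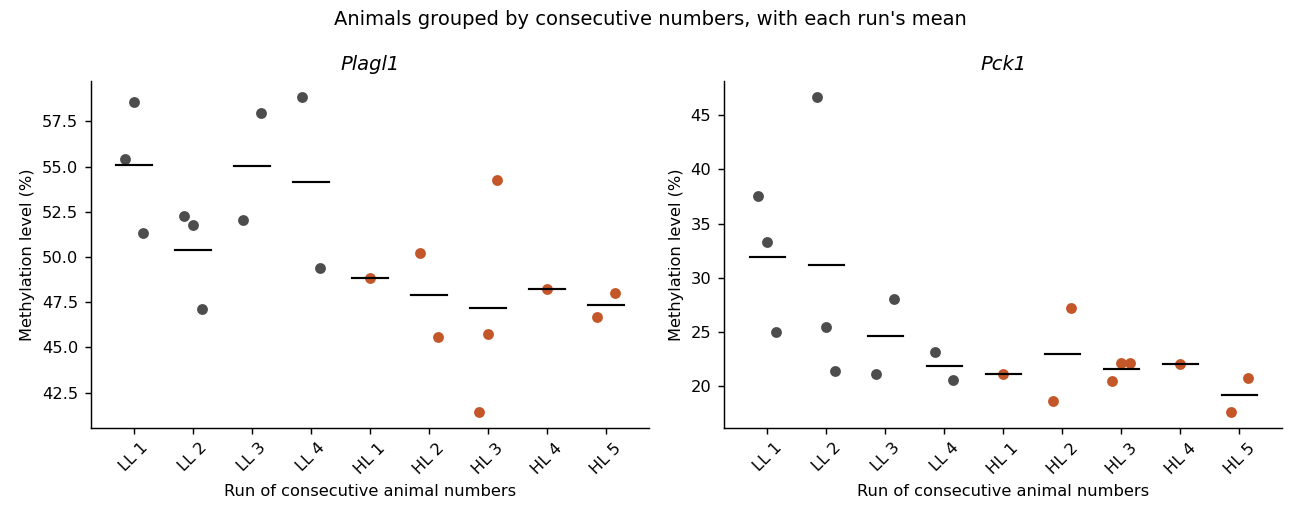
Methylation level in percent (vertical axis, not starting at 0) at Plagl1 and Pck1 in each LL animal (grey) and HL animal (orange), placed by run of consecutive animal numbers, with the mean of each run as a black line. The HL run means of Plagl1 (47.2 to 48.9%) lie under all LL run means (50.4 to 55.1%), while those of Pck1 overlap.

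The other imprinted loci gave smaller differences. Peg3, a zinc finger gene expressed from the paternal copy, had 45.4% ± 3.57 in HL and 47.6% ± 2.57 in LL (-2.16 points, 95% interval -5.17 to 0.851, exact permutation p = 0.147, adjusted p = 0.487). All 11 of its CpGs were lower in HL, by 1.89 to 2.61 points, none at an unadjusted p under 0.05, and as at Plagl1 they varied together from animal to animal (median correlation 0.965). HL animals ranged from 39.2 to 49.4% and LL animals from 44.2 to 51.9%. Igf2, amplified in its 5′ UTR, had 3.67% ± 0.587 in 5 HL animals and 3.25% ± 0.294 in 8 LL animals (0.414 points, 95% interval -0.115 to 0.970, exact permutation p = 0.131, adjusted p = 0.487). No animal of the series numbered 123 to 177 had a value at Igf2, while every other animal had one. This block held HL replicates 5 to 8 and LL replicates 7 and 8, and its cause was not tested. The level of Igf2 was thus far from those of Plagl1 and Peg3. Of the 39 CpGs of the imprinted group, 17 had an unadjusted p under 0.05 (43.6%, against 12.6% of all CpGs), all of Plagl1, with a median difference over the 39 of -2.40 points against -0.0241 points over all 294 CpGs. Of the 294, 191 lay at loci under 2%, where differences in points are small. Over the 103 CpGs at loci of 2% or more, the share was 24.3% and the median difference -0.352 points. Most of the 39 CpGs were of Plagl1 and Peg3, and CpGs of 1 locus share reads.

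At the leptin locus the sign was the other way. Lep had 66.4% ± 1.92 in HL and 63.98% ± 3.71 in LL (2.45 points, 95% interval -0.465 to 5.35, exact permutation p = 0.0942, adjusted p = 0.487). HL animals ranged from 64.1 to 69.9% and LL animals from 58.7 to 69.99%, with 4 LL animals under all HL animals. Along the amplicon the CpG levels varied from 52.6 to 83.3%, and 10 of the 11 CpGs were higher in HL. Lep_1 and Lep_11, at the ends of the amplicon, had an unadjusted p under 0.05, with 2.87 and 4.14 points (exact permutation p = 0.0374 and 0.0341, adjusted p = 0.343 and 0.324). The CpGs of Lep had a median correlation of 0.459. Without LL replicate 9 the locus had an unadjusted p of 0.0255 (exact permutation test, adjusted p = 0.187). Lepr, the receptor, had 5.84% ± 0.746 in HL and 6.295% ± 0.589 in LL (-0.457 points, 95% interval -1.11 to 0.193, exact permutation p = 0.155, adjusted p = 0.487). Its upstream CpGs had the higher levels, up to 23.2% in HL and 25.6% in LL at the first of them, against 1.1 to 2.80% in both groups in the 5′ UTR, and 16 of its 19 CpGs were lower in HL, 1 of them at an unadjusted p under 0.05 (Lepr_3, -1.62 points, exact permutation p = 0.0415).

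The remaining loci at 2% or more lay close together in the 2 groups. The highest levels were at Nr1i2, the gene of the pregnane X receptor, a sensor of foreign compounds, with 94.3% ± 0.516 in HL and 94.6% ± 0.509 in LL (-0.274 points, 95% interval -0.773 to 0.218), and at the coding exon of Irs1, an adaptor of the insulin receptor, with 94.2% ± 1.29 and 94.5% ± 1.32 (-0.232 points, -1.50 to 1.04). Nr1i3, the gene of the constitutive androstane receptor, had 31.2% ± 3.08 and 30.6% ± 3.67 (0.657 points, -2.64 to 3.98). Rxrg, a retinoid X receptor, had 11.3% ± 1.86 and 11.4% ± 1.88 (-0.0838 points, -1.91 to 1.72). The exact permutation p of these 4 loci lay between 0.268 and 0.925. These intervals leave room for differences of up to 3.98 points at Nr1i3 and of less than 1 point at Nr1i2.

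**Figure D4:**
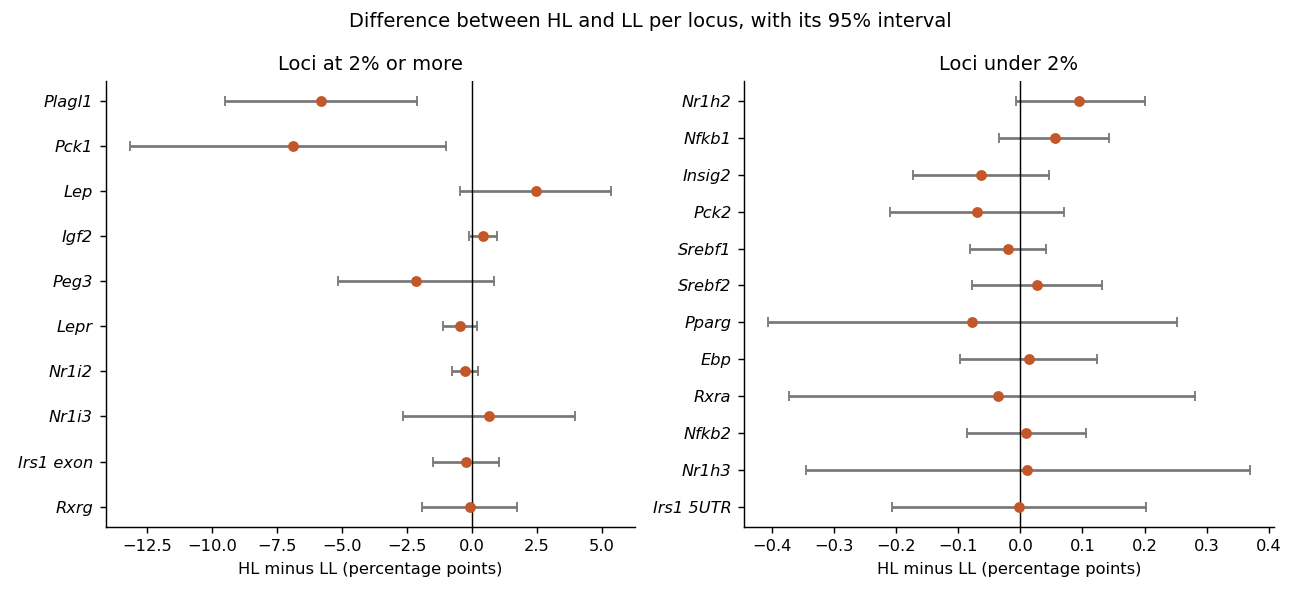
Difference in methylation level between HL and LL in percentage points (horizontal axis, a scale of its own in each panel) at the 10 loci at 2% or more and the 12 loci under 2%, with the 95% interval from the exact permutation test as grey bars. The intervals of Plagl1 and Pck1 leave out 0 before adjustment, and every interval in the right panel lies within 0.406 points of 0.

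The 12 other loci had levels of 0.678 to 1.63% over the 19 animals and differed by at most 0.0939 points. Among them Nr1h2, the gene of LXR beta, a sterol sensor, had the smallest p, with 0.744% ± 0.121 in HL and 0.650% ± 0.0968 in LL (0.0939 points, 95% interval -0.00772 to 0.200, exact permutation p = 0.0713, adjusted p = 0.487). The HL animals had 0.654, 0.771, 0.638, 0.751, 0.693, 0.733, 1.05, 0.702 and 0.705% (replicates 2 to 10). The LL animals had 0.787, 0.516, 0.585, 0.574, 0.636, 0.595, 0.777, 0.613, 0.778 and 0.639% (replicates 1 to 10). All 9 HL animals lay above the LL median of 0.624%, and 3 LL animals lay above all HL animals but replicate 8. Without HL replicate 8 the difference was 0.0560 points. Nr1h2_9, just upstream of the gene, had 0.807% ± 0.335 in HL and 0.347% ± 0.218 in LL (exact permutation p = 0.00351, adjusted p = 0.129).

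Of the sterol regulators, Srebf1 and Srebf2 (the sterol response element binding factors), Insig2 (which holds them back) and Ebp (an enzyme of cholesterol synthesis), 4 of 71 CpGs had an unadjusted p under 0.05 (5.63%), 2 in each direction. The share was 12.6% over all CpGs and 5.51% over those outside Plagl1 and Pck1. The locus values of the sterol regulators in HL and LL were 0.726 and 0.746% at Srebf1, 0.692 and 0.666% at Srebf2, 0.793 and 0.857% at Insig2 and 0.742 and 0.729% at Ebp. Ebp_4 was the CpG with the smallest p outside Plagl1. It lies in the 5′ UTR of Ebp, within the following 30 bases of chrX:7769928-7769957 on the minus strand (the CpG in capitals).
Ebp_4: aggaagtcgccctgCGatcgcgccgcctgg
It had 0.795% ± 0.299 in HL and 0.463% ± 0.0781 in LL (0.332 points, exact permutation p = 0.00344, adjusted p = 0.129), with HL animals between 0.433 and 1.23% and LL animals between 0.406 and 0.644%. Ebp_6, in the same amplicon, differed in the other direction (0.483 against 0.964%, exact permutation p = 0.0182, adjusted p = 0.223), and the whole locus differed by 0.0132 points.

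At the other low loci the values in HL and LL were 0.844 and 0.789% at Nfkb1 and 0.808 and 0.7997% at Nfkb2, the precursors of NF-kappaB factors of inflammation, and 0.715 and 0.784% at Pck2. They were 1.64 and 1.63% at Nr1h3, 0.827 and 0.863% at Rxra, 0.736 and 0.814% at Pparg (7 and 8 animals), a master factor of fat cells, and 0.787 and 0.789% at the 5′ UTR of Irs1 (8 animals each). Their exact permutation p lay between 0.210 and 0.977. An unadjusted p under 0.05 was found at 5 of the 37 CpGs of the NF-kappaB loci (13.5%), 3 higher and 2 lower in HL, and at 3 of the 77 CpGs of the 7 nuclear receptor loci (3.90%). The share was 12.6% over all CpGs and 5.51% over those outside Plagl1 and Pck1. Within the 12 low loci the CpGs had median correlations from -0.0607 to 0.0438. The ratio of observed to expected CpGs was 0.5 to 1.11 at the 12 loci and 0.378 to 0.8286 at the 10 loci at 2% or more.

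No technical measure compared had an unadjusted p under 0.05. Read totals added over the CpGs of an animal, which count a read at each CpG it covers, ran from 2353905 to 15531697. Animals had 267 to 298 CpGs with a value, and mean log10 reads per CpG were 3.79 in HL and 3.85 in LL (exact permutation p = 0.523, 9 HL and 10 LL animals). No locus differed in depth at an unadjusted p under 0.05 (0 of 22, smallest adjusted p 0.759). The mean over the 12 low loci, where unconverted cytosine would show, was 0.840% ± 0.0526 in HL and 0.845% ± 0.0735 in LL (exact permutation p = 0.853). Taking each animal's value off the higher loci left Plagl1 at -5.80 points and Pck1 at -6.86 points. The groups differed in the value taken off by only -0.0055 points, so this step could not move the differences further and is no test of them.

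Whether maternal diet acted alike in offspring weaned onto the HF diet was asked with the other animals of the series, HH (HF dam) and LH (LF dam), 10 animals each,, which share no animal with HL and LL. Plagl1 had 51.2% ± 3.41 in HH and 51.7% ± 3.70 in LH (9 LH animals with a value), a difference of -0.485 points beside -5.81 points for HL and LL. In limma on log2 odds the difference between these differences was -0.31 ± 0.14 (SE), with p = 0.0327 and adjusted p = 0.524 over the 22 loci. Plagl1 was the only locus at an unadjusted p under 0.05 for this interaction (1 of 22, 4.55%), and 6 of its 17 CpGs were among the 15 of 294 (5.1%), while 0 CpGs and 0 loci passed adjustment in limma. With each animal of the 4 groups left out in turn, 0 to 4 loci and 9 to 22 CpGs had an unadjusted p under 0.05. No locus did without LL replicate 2, 8 or 9 or LH replicate 1 or 9, the 4 loci were found without LH replicate 10, and the 9 CpGs without HL replicate 5 or 6. Pck1 had 24.7% ± 3.47 in HH and 28.2% ± 6.80 in LH, a difference of -3.53 points beside -6.87 points, and an interaction of -0.26 ± 0.26 (limma p = 0.329, adjusted p = 0.596). The SD at Pck1 was larger in LH than in HH, a difference in spread that was not tested. Lep had 67.5% ± 3.55 and 66.3% ± 3.89, a difference of 1.13 points beside 2.45 points (limma interaction p = 0.576, adjusted p = 0.749). Lepr had a difference of 0.553 points beside -0.457 points (limma interaction p = 0.0700, adjusted p = 0.524).

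**Figure D5:**
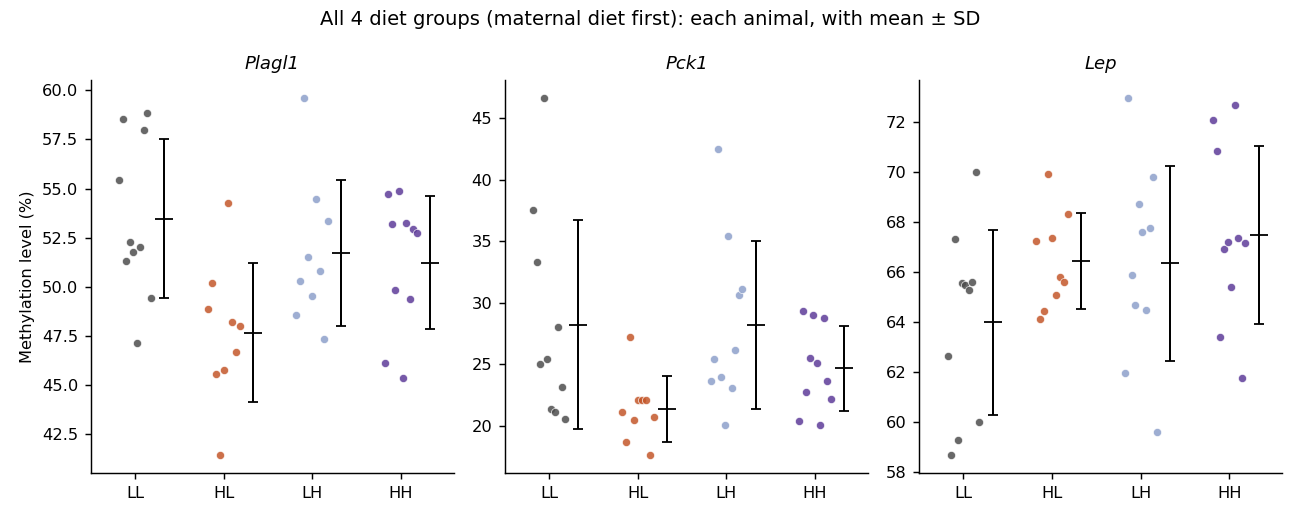
Methylation level in percent (vertical axis, not starting at 0) of each animal at Plagl1, Pck1 and Lep in the 4 diet groups, maternal diet first (LL grey, HL orange, LH light blue, HH purple), with the mean ± SD as black bars. HL is the lowest group at Plagl1 (47.7%) and at Pck1 (21.4%), and the LL and LH groups hold the widest spread at Pck1.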

How the data were processed

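Liver DNA of male C57BL/6J mice was bisulfite-treated, amplified at chosen loci and sequenced. Per the submitters' notes the authors aligned reads to mm9 (NCBIM37) with Bismark, whose version is not given in the sources used here. They deposited for each CpG in each animal the counts of methylated and total reads and the methylated fraction, which equals the ratio of the counts over 11071 values. Every deposited total above 0 was at least 100 reads, and of the per-animal columns 0 were left unused. Reads are PCR copies, and at 18 of 21 loci (Nr1h3, with CpGs outside its amplicon, was not examined for this) some CpGs had totals 1.90 to 2.01 times those of the others, mostly even numbers, so counts are not independent molecules and counting errors are lower limits. At Nr1i2, Pck2 and Rxra no CpG stood out so, but 93.7 to 100% of all totals were even. At the 18 loci 46.3 to 60.4% of the totals not doubled were even. Whether totals were doubled throughout at Nr1i2, Pck2 and Rxra was not tested.

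Methylation was 100 × methylated/total reads, for CpGs with at least 10 reads in most animals of each group. CpGs within 1000 bp formed a locus; its value was the mean over CpGs where an animal had at least 0.5 of them. HL and LL were compared by two-sided exact permutation tests of the difference in means (double the smaller tail, 92378 splits), with Benjamini-Hochberg adjustment at 0.05 and 95% intervals by inversion. Spread and depth were tested likewise. The interaction used limma 3.58.1 (R 4.3.3) on log2((methylated + 1)/(unmethylated + 1)) and, for loci, on log2 odds with 0.1 points added. The 22 primer pairs matched NCBIM37, used with GENCODE M1; 9 tested CpGs of Nr1h3 lay outside its amplicon. Tests were tried on simulated data. Named by rule were all loci, each animal's values at the 3 loci of smallest p, the 5 CpGs of smallest p, the 3 of largest difference and the ends of the loci at unadjusted p under 0.05; other CpGs were named after their values were seen. The members and lists were chosen with earlier results of these data known. Where Lepr was amplified, and its sequence, is not reported here. Python 3.11.15, numpy 2.4.6 and scipy 1.17.1 were used.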

Additional observations from a re-analysis of the deposited data

Results flagged for a closer look

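A lone animal lay far from the rest of its group in 4 of 44 groups of locus values, where chance alone flags about 1 in 20 groups. At Pck1, HL replicate 4 had 27.2% while the other HL animals lay between 17.6 and 22.1%. Without it the difference at Pck1 was -7.60 points (exact permutation p = 0.00398, adjusted p = 0.0835). At Nr1h2, HL replicate 8 had 1.05% while the others lay between 0.638 and 0.771%. At Nr1i2, HL replicate 4 had 93.1% while the others lay between 94.0 and 94.7%. At Rxra, LL replicate 10 had 1.81% while the others lay between 0.409 and 0.953%.

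Some CpGs that had too few animals to be tested held methylated reads. A CpG named for 6030445D17Rik, which matched no primer pair, had 20% in 1 HL animal (20 of 100 reads) and no value in LL. Rxra_1 had 1.16% and Rxra_2 0.514% over the reads of 4 HL animals, beside 1.25 and 0.664% over those of 7 LL animals. In the same numbers of animals Rxra_17 had 0.258% in HL (2 of 775 reads) and 1.18% in LL (16 of 1352 reads), a difference that was not tested.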

How the results depend on the processing

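The differences at Plagl1 and Pck1 stayed negative, with an unadjusted p under 0.05, in all 31 alternatives run for each. Most of these left out a single animal and shared the others. Some, such as a minimum of 100 reads or values in all 19 animals, left both differences unchanged. The alternatives are thus not separate support. Adjusted p ranged from 0.0141 to 0.349 at Plagl1 and from 0.0835 to 0.4656 at Pck1. Both upper ends came from averaging over runs, where the small number of runs kept a single locus from passing. Of the CpGs named by rule, Pck1_5 had an unadjusted p under 0.05 in 13 of 28 alternatives, Plagl1_12 in 22 of 27 and Ebp_4 in 26 of 27. The other CpGs named by rule had it in all of theirs. No locus passed adjustment in the reported analysis; 1 locus (Plagl1) passed in limma with 4 groups. With each animal left out in turn, 0 to 1 loci and 0 to 10 CpGs passed; the 10 were called without HL replicate 7, and the locus was called without HL replicate 7 or LL replicate 6. Leaving out an animal gave 30 to 39 CpGs and 2 to 4 loci at an unadjusted p under 0.05, the 4 being called without LL replicate 9 (Lep, Nr1h2, Pck1 and Plagl1). A minimum of 1000 reads left 219 CpGs, of which 22 had an unadjusted p under 0.05, in place of 37 of 294. Most Plagl1 CpGs, with median reads of 712 to 722, were not among the 219. The Plagl1 value at this setting rested on its CpGs with doubled totals (-6.03 points, exact permutation p = 0.00333, adjusted p = 0.0599). With reads pooled over a locus, 4 loci were at that level (Igf2, Nr1h2, Pck1 and Plagl1); the cause was not tested. No CpG passed the interaction in any of its alternatives. No paired analysis was possible because the labels give no number that pairs HL with LL animals.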

Other observations

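The 9 loci at 2% or more with values in all 19 animals were compared pairwise across animals within each group, 72 relations in all (exact permutation in HL, 100000 permutations in LL). Of these, 4 had an unadjusted p under 0.05 for Pearson's r and 0 passed adjustment. The smallest p was between Nr1i3 and Rxrg in the 9 HL animals, with r = 0.886 (exact permutation p = 0.00219, adjusted p = 0.158) and Spearman's rho = 0.867 (exact permutation p = 0.00451, adjusted p = 0.325). Without the 2 animals farthest from the median of Nr1i3, r was 0.696. The other 3 pairs were also in HL: Nr1i2 with Rxrg (r = -0.662, exact permutation p = 0.0409, rho = -0.583), Pck1 with Rxrg (r = 0.668, exact permutation p = 0.0425, rho = 0.55) and Nr1i2 with Pck1 (r = -0.745, exact permutation p = 0.0430, rho = -0.5), each with an adjusted p of 0.588. Without the 2 farthest animals their r was -0.285, 0.512 and -0.194, so that both pairs with Nr1i2 rested on those animals. HL replicate 4 was the highest HL animal at Nr1i3 (36.1%), Rxrg (14.4%) and Pck1 (27.2%) and the lowest at Nr1i2 (93.1%). All 4 pairs thus shared this animal at an end of both loci. Plagl1 and Pck1 had r = -0.0869 in HL (exact permutation p = 0.814) and 0.292 in LL (permutation p = 0.423), with rho = -0.1 and 0.515. Without the 2 farthest animals r was 0.0994 in HL and 0.678 in LL.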
